A study of Arabidopsis thaliana with 22 samples.

Results

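The differentiation zone (DZ) of Arabidopsis thaliana roots was compared after water and after SCOOP12, in both genotypes of the study. SCOOP12 is a secreted peptide, given here at 100 nM; the wild type was the accession Ws, and the mutant proscoop12, in the Ws background, is affected in PROSCOOP12, the gene for the peptide's precursor. The labels describe the mutant as having a longer root, and do not describe the mutation itself. The 11 libraries whose titles place them in DZ were taken, of 22 in all. They are 2 Ws water libraries (replicates 3 and 4), 3 Ws SCOOP12 libraries, 3 proscoop12 water libraries and 3 proscoop12 SCOOP12 libraries (replicates 1, 3 and 4 each). All plants were 11 days old and every group carries the Ws background; the water groups are called control in the labels. The other 11 libraries come from the meristematic-elongation zone (MEZ) of roots of the same groups and served for comparison.

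SCOOP peptides are cut from secreted precursors and are perceived at the plasma membrane by the receptor kinase MIK2 with its co-receptor BAK1, which sets off calcium influx, reactive oxygen production and defence gene expression; SCOOP12 also slows root growth. In the DZ, cells have stopped elongating, root hairs emerge, and the endodermis builds its barriers. The deposited values cover non-coding loci: long non-coding and antisense RNAs, microRNA precursors, small nuclear and nucleolar RNAs, and ribosomal RNA. An antisense RNA is read from the strand opposite a coding gene; it may act on that gene or merely neighbour it.

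Each DZ library held 678613 to 1575524 reads on the 5224 loci listed, of which 80.5% to 89.8% fell on ribosomal RNA, leaving 103351 to 160467 reads for all other loci. PROSCOOP12 and the coding markers of root zones and cell types were not analysed here, so neither the mutation nor the zone could be checked on coding genes. AT5G06595, a non-coding locus opposite a PROSCOOP12 exon, had 4 reads over the 5 Ws DZ libraries (3 in water replicate 3 and 1 in SCOOP12 replicate 3) and 0 over the 6 proscoop12 DZ libraries, too few for a test. For 2 libraries of replicate 3 the file name and the title disagree: the library labelled Ws SCOOP12 is named as proscoop12 water, and the library labelled proscoop12 water as Ws SCOOP12. The titles were kept. AT1G06963, a long non-coding RNA picked because earlier results of these data showed it higher in the mutant, stood at 14.7 CPM (reads scaled to library size) in the first, where the 10 Ws libraries of both zones held 1.24 to 25.1 CPM, and at 45.3 CPM in the second, where the 12 proscoop12 libraries held 30.4 to 103 CPM. Results are given with and without both libraries. The library Ws SCOOP12 replicate 1 stood apart from its group, with a chi-square per degree of freedom of 258 and 367 against the other 2 libraries, which gave 77.7 between themselves.

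SCOOP12 changed 98 of 766 loci tested in DZ, 12.8%: 48 rose (6.27%) and 50 fell (6.53%). The fit averaged the response over the genotypes with the replicate number as a block, by edgeR's quasi-likelihood test at a Benjamini-Hochberg adjusted p under 0.05, and 195 loci had an unadjusted p under 0.05. Log2 fold changes of those that passed ran from 0.44 to 2.98 upward and from -0.45 to -2.38 downward; the median over all 766 was 0.00. In 18 of the loci that rose and 16 of those that fell, all 6 SCOOP12 libraries lay beyond all 5 water libraries. These loci had already been chosen for a difference between the treatments, and the share over all 766 loci was not computed. Without the replicate block 20 loci passed, all among the 98. By DESeq2 with the same design 90 passed, 84 of them among the 98; of the other 14, 13 had an adjusted p at or above 0.05 and 1 had none. Without both libraries of disagreeing names 67 passed, 64 of them among the 98, and all 98 kept their direction; with the labels of those 2 libraries exchanged 0 passed by edgeR, 93 had an unadjusted p under 0.05, and the direction was unchanged for all 98. The count was 61 without Ws water replicate 4, 63 without Ws SCOOP12 replicate 4, 63 without proscoop12 water replicate 4 and 58 without proscoop12 SCOOP12 replicate 4. File names place replicates 1 and 3 in one sequencing run and replicate 4 in another: 16 of the 98 passed in replicates 1 and 3 alone, where Ws water has 1 library, and 48 in replicate 4 alone, where 1 library stands for each group. All of the 98 that could be tested kept their direction in both, 98 in the first and 95 in the second. The 98 were chosen on all 11 libraries, so their direction in these subsets, and with libraries left out or exchanged, was largely fixed. These are whole tissue samples, so fewer cells of a type and less RNA per cell cannot be told apart.

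The largest fall was at AT3G00880, a misc_RNA on chromosome 3 that overlaps no coding exon and lies next to WNK5, a gene for a kinase of the with-no-lysine family. In Ws it stood at 1173 and 1681 CPM in the water libraries of replicates 3 and 4, and at 671, 269 and 323 CPM with SCOOP12 in replicates 1, 3 and 4. In proscoop12 the water libraries of replicates 1, 3 and 4 held 1721, 1348 and 1439 CPM, and the SCOOP12 libraries 309.8, 199.7 and 239 CPM. All SCOOP12 libraries were below all water libraries, and the highest of them was Ws replicate 1. The log2 fold change was -2.38 (SE 0.17, edgeR adjusted p 2.27e-07), and -2.26 without both libraries of disagreeing names. AT1G31935, an ncRNA on chromosome 1 next to XLG3, which encodes an extra-large G protein alpha subunit, also fell. The Ws libraries held 2827 and 1797 CPM with water (replicates 3 and 4), against 884, 717 and 613 CPM with SCOOP12 (replicates 1, 3 and 4). The proscoop12 libraries of replicates 1, 3 and 4 held 2417, 2124 and 2223 CPM with water, against 564, 543 and 709.9 CPM with SCOOP12. The groups again did not overlap. Its log2 fold change was -1.80 (SE 0.15, edgeR adjusted p 1.60e-06), and -1.80 without both libraries. Both also passed with the share of organellar ribosomal RNA in each library as a covariate. So did AT1G08173, AT5G00585 and 3 others of the 98. That share was itself lower on average with SCOOP12, so the covariate overlaps with the treatment.

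AT1G08173, a long non-coding RNA (lncRNA) on chromosome 1 without an overlapping coding exon, fell by 1.95 on the log2 scale (SE 0.20, edgeR adjusted p 1.03e-05). Ws held 152 and 133 CPM with water and 114, 43.2 and 31.7 CPM with SCOOP12; proscoop12 held 213, 118 and 154 CPM with water and 62.0, 21.9 and 33.8 CPM with SCOOP12. The groups did not overlap, but the SCOOP12 library of Ws replicate 1 lay just below the lowest water library. AT5G10965, opposite a zinc-finger gene, AT5G10970, fell by 1.47 (SE 0.21, edgeR adjusted p 2.65e-04): water libraries ranged from 51.3 to 81.7 CPM and SCOOP12 libraries from 13.2 to 31.6 CPM, with no overlap. AT4G06685, opposite the auxin-responsive family gene AT4G17280, fell by 1.81 (SE 0.25, edgeR adjusted p 2.42e-04), with the lowest, median and highest water values at 27.6, 76.8 and 106 CPM and the SCOOP12 values at 12.6, 18.6 and 44.2 CPM. Its groups overlapped through Ws SCOOP12 replicate 1 and the water library labelled proscoop12 replicate 3. All 3 passed when any 1 DZ library was left out.

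Some of the loci that fell lie opposite genes of the lipid barriers of the plant surface. AT4G03585 lies opposite CYP86A2, a fatty acid hydroxylase of cutin synthesis. In Ws it stood at 174 and 265 CPM in the water libraries of replicates 3 and 4, and at 129, 39.9 and 30.9 CPM with SCOOP12 in replicates 1, 3 and 4. In proscoop12 the water libraries of replicates 1, 3 and 4 held 247.2, 123 and 307 CPM, and the SCOOP12 libraries 66.0, 44.7 and 49.1 CPM. The groups overlapped only through Ws SCOOP12 replicate 1 and the proscoop12 water library of replicate 3, and the log2 fold change was -2.09 (SE 0.25, edgeR adjusted p 6.30e-05). AT1G04247 lies opposite KCS2, a ketoacyl-CoA synthase that makes very long chains for suberin, and fell by 1.48 (SE 0.21, edgeR adjusted p 3.04e-04). Ws held 163 and 248.4 CPM with water and 140.0, 59.9 and 64.1 CPM with SCOOP12; proscoop12 held 152, 174 and 259 CPM with water and 87.4, 53.9 and 66.8 CPM with SCOOP12. No SCOOP12 library reached the lowest water library. Of the listed genes of cutin, suberin and wax, 3 have an opposite-strand locus that was tested; these 2 fell, beside 6.53% of all loci, and AT2G37362, opposite the suberin transporter gene ABCG2, did not pass, at -0.06 (edgeR adjusted p 0.851). The median of the 3 was -1.48, beside 0.00 over all loci. The list was drawn up with earlier results of these data known, so these shares are no independent test.

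AT3G12502, opposite the basic chitinase gene HCHIB, an enzyme that degrades fungal cell walls, fell by 1.18 (SE 0.21, edgeR adjusted p 0.00189). Ws held 161 and 212 CPM with water and 259, 77.3 and 69.7 CPM with SCOOP12; proscoop12 held 302, 199.03 and 325 CPM with water and 177, 78.4 and 99.8 CPM with SCOOP12. Replicate 1 was high throughout, so that its SCOOP12 libraries overlapped the water libraries of replicates 3 and 4, while within each replicate number SCOOP12 was the lower in proscoop12. AT3G05015, opposite an RPW8 family gene, AT3G26470, fell by 1.43 (SE 0.32, edgeR adjusted p 0.00867), with water libraries at 20.7 to 41.0 CPM and SCOOP12 libraries at 2.49 to 25.4 CPM. AT1G08803 lies opposite TPX2, a thioredoxin-dependent peroxidase that removes peroxide; its water libraries held 165 to 303 CPM and its SCOOP12 libraries 80.8 to 146 CPM, without overlap (log2 fold change -1.13, SE 0.21, edgeR adjusted p 0.00222). AT3G51238, opposite the flavonoid enzyme gene F3H, fell by 1.14 (edgeR adjusted p 0.0417), but its level varied far more between replicates than between treatments: water libraries spanned 5.75 to 516 CPM and SCOOP12 libraries 15.2 to 159 CPM. It lost its call without proscoop12 SCOOP12 replicate 1, Ws water replicate 3, Ws SCOOP12 replicate 3, Ws water replicate 4, Ws SCOOP12 replicate 4, proscoop12 water replicate 4 or proscoop12 SCOOP12 replicate 4, with log2 fold changes of -0.79 to -1.45 over all 11 omissions, and its DESeq2 adjusted p was 0.202. AT5G09525 overlaps CHY1, a gene for a peroxisomal enzyme of valine breakdown, by a small part of its length on the opposite strand; it fell by 1.14 (edgeR adjusted p 0.0100), and by 1.005 with an edgeR adjusted p of 0.0530 without both libraries of disagreeing names. Smaller falls included those opposite the ammonium transporter gene AMT1;1 (AT4G13505, log2 fold change -0.82) and SIP4 (AT2G30362, -0.80), which encodes a kinase that binds a calcium sensor of the SOS3 family. AT2G30362 did so without overlap, at 128 to 200 CPM with water and 68.2 to 109 CPM with SCOOP12. AT4G13505 overlapped and lost its call without proscoop12 SCOOP12 replicate 4 (log2 fold changes of -0.65 to -1.06).

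The submitters' notes describe the libraries as stranded, but the strand that was counted is not given in the sources used here. For each of these opposite-strand loci, reads of the coding gene and of its antisense partner therefore cannot be told apart.

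Among the other loci that fell was AT2G41312, an ncRNA next to RR3, a response regulator gene of cytokinin signalling. Ws held 119 and 112 CPM with water and 123, 55.7 and 58.6 CPM with SCOOP12; proscoop12 held 188.7, 106 and 135 CPM with water and 62.98, 56.5 and 48.2 CPM with SCOOP12. It was lower with SCOOP12 than with water in each genotype and replicate number that has both, and its log2 fold change was -1.12 (SE 0.18, edgeR adjusted p 6.29e-04). AT3G27884, a highly counted ncRNA, fell by 1.07 (SE 0.19, edgeR adjusted p 0.00144), with the lowest, median and highest water values at 7338, 11119 and 17401 CPM and the SCOOP12 values at 3935, 5204 and 9094 CPM; the response was -0.70 in Ws and -1.34 in proscoop12. AT1G10682, an ncRNA, stood at 20139.5 to 28636 CPM with water and 12722 to 18444 CPM with SCOOP12, with no overlap (log2 fold change -0.65, SE 0.11, edgeR adjusted p 0.00154). AT2G14878, likewise without overlap, stood at 3216 to 5779 and 1519.7 to 2901 CPM (log2 fold change -0.89, edgeR adjusted p 1.43e-04). AT1G07367, an lncRNA, fell by 1.41 (SE 0.28, edgeR adjusted p 0.00362) although its levels overlapped widely: water libraries held 41.4 to 225 CPM and SCOOP12 libraries 11.8 to 219 CPM, and the fall was within replicate numbers.

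**Figure D1:**
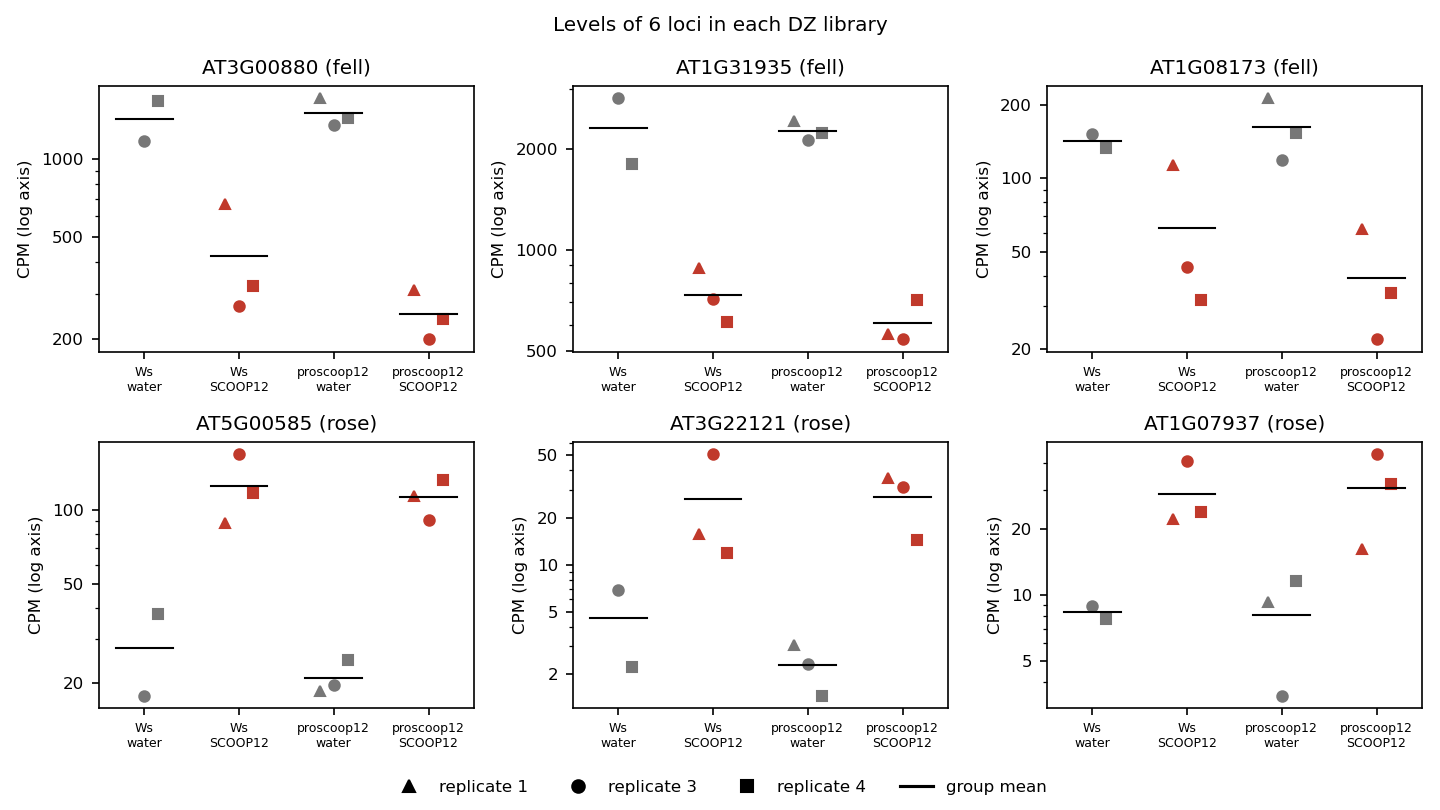
CPM of 6 loci in each DZ library on log axes, with grey symbols for water, red symbols for SCOOP12, the symbol's shape for the replicate number and a line for the group mean. In all 6 panels the SCOOP12 libraries lie on one side of the water libraries; for AT1G08173 Ws SCOOP12 replicate 1 at 114 CPM lies just below the lowest water library at 118 CPM.

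The most upward log2 fold changes belonged to AT3G22121 and AT3G00390. AT3G22121 is an lncRNA wholly opposite CWLP, a gene for a protein that links the cell wall to the plasma membrane. The Ws libraries held 6.89 and 2.22 CPM with water (replicates 3 and 4), against 15.8, 50.7 and 11.9 CPM with SCOOP12 (replicates 1, 3 and 4). The proscoop12 libraries of replicates 1, 3 and 4 held 3.08, 2.30 and 1.45 CPM with water, against 35.6, 31.2 and 14.4 CPM with SCOOP12. These rest on 15 reads over the 5 water libraries and 180 over the 6 SCOOP12 libraries; the groups did not overlap, and the log2 fold change was 2.98 (SE 0.39, edgeR adjusted p 1.43e-04). Without both libraries of disagreeing names it was 2.51 (edgeR adjusted p 0.00493). AT3G00390, a misc_RNA between 2 coding genes on chromosome 3, rose by 2.96 (SE 0.44, edgeR adjusted p 3.76e-04). In Ws it stood at 5.90 and 119.8 CPM in the water libraries of replicates 3 and 4, and at 7.37, 310.2 and 651 CPM with SCOOP12 in replicates 1, 3 and 4. In proscoop12 the water libraries of replicates 1, 3 and 4 held 0, 51.8 and 120.3 CPM, and the SCOOP12 libraries 12.2, 540.1 and 332 CPM. Replicate 1 was low in the 3 groups that have one, and the treatments overlapped: the 2 SCOOP12 libraries of replicate 1 lay below 3 of the 5 water libraries. Without the replicate block its edgeR adjusted p was 0.338.

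AT5G00585, a misc_RNA of chromosome 5, lies among the genes around PROSCOOP12 and was higher in all 6 SCOOP12 libraries. The Ws libraries held 17.7 and 37.7 CPM with water (replicates 3 and 4), against 88.4, 167 and 117 CPM with SCOOP12 (replicates 1, 3 and 4). The proscoop12 libraries of replicates 1, 3 and 4 held 18.5, 19.6 and 24.6 CPM with water, against 114, 91.0 and 131 CPM with SCOOP12. Water and SCOOP12 did not overlap, and the response was 2.29 in Ws and 2.42 in proscoop12. The averaged log2 fold change was 2.36 (SE 0.23, edgeR adjusted p 6.06e-06), and 2.19 without both libraries. AT1G07937 is an lncRNA whose neighbour is PME2, a pectin methylesterase gene of the cell wall. Ws held 8.86 and 7.76 CPM with water and 22.1, 40.8 and 23.8 CPM with SCOOP12; proscoop12 held 9.23, 3.45 and 11.6 CPM with water and 16.3, 43.8 and 32.2 CPM with SCOOP12. It rose without overlap by 1.90 (SE 0.32, edgeR adjusted p 0.00121). AT3G06962, an ncRNA, rose by 2.42 (SE 0.45, edgeR adjusted p 0.00222), with water libraries at 0 to 4.92 CPM and SCOOP12 libraries at 5.26 to 26.2 CPM, also without overlap. These 3 passed when any 1 DZ library was left out. AT5G09575, a misc_RNA next to the chalcone-flavanone isomerase family gene AT5G66230, rose by 2.40 (SE 0.63, edgeR adjusted p 0.0206) with water libraries at 0 to 4.92 CPM and SCOOP12 libraries at 3.37 to 14.3 CPM; its edgeR adjusted p was 0.0839 without both libraries of disagreeing names, and it lost its call without Ws SCOOP12 replicate 3, Ws water replicate 4, Ws SCOOP12 replicate 4 or proscoop12 SCOOP12 replicate 4 (log2 fold changes of 1.87 to 3.29).

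Of the 3 listed loci opposite genes annotated as dirigent-like, 2 were tested and both rose, beside 6.27% of all loci; the group was formed after their values were seen. Dirigent proteins steer the coupling of phenols into lignans and lignin. AT3G04615 lies opposite the dirigent gene AT3G24020. The Ws libraries held 21.6 and 4.44 CPM with water (replicates 3 and 4), against 62.1, 106 and 39.6 CPM with SCOOP12 (replicates 1, 3 and 4). The proscoop12 libraries of replicates 1, 3 and 4 held 30.8, 63.3 and 18.8 CPM with water, against 87.4, 50.6 and 68.5 CPM with SCOOP12. Where a genotype has both libraries of a number, SCOOP12 was above water except in proscoop12 replicate 3, and the log2 fold change was 1.54 (SE 0.34, edgeR adjusted p 0.00811). That exception involves the water library of disagreeing name; the log2 fold change was 1.62 without both. AT4G06135, opposite the dirigent gene AT4G13580, rose without overlap with water libraries at 2.22 to 11.8 CPM and SCOOP12 libraries at 13.5 to 31.6 CPM (log2 fold change 1.41, SE 0.34, edgeR adjusted p 0.0119), and its edgeR adjusted p was 0.0662 without both libraries. AT2G09785, an antisense RNA of the ubiquitin gene UBQ6, rose with water libraries at 12.7 to 18.9 CPM and SCOOP12 libraries at 21.4 to 43.7 CPM (log2 fold change 1.02, SE 0.23, edgeR adjusted p 0.00811), and AT5G36002, opposite a RING/U-box gene, rose with water libraries at 5.54 to 15.7 CPM and SCOOP12 libraries at 18.9 to 38.0 CPM (log2 fold change 1.34, edgeR adjusted p 0.00936). AT1G20515, opposite AT1G20520 and next to OPCL1, a CoA ligase of jasmonate synthesis, rose with water libraries at 7.76 to 12.8 CPM and SCOOP12 libraries at 16.9 to 26.1 CPM (log2 fold change 1.02, edgeR adjusted p 0.0204), and lost its call without Ws water replicate 4, Ws SCOOP12 replicate 4 or proscoop12 SCOOP12 replicate 4 (log2 fold changes of 0.84 to 1.15). AT2G00870 rose by 0.67 (edgeR adjusted p 0.0265) without overlap, and lost its call without Ws water replicate 3, proscoop12 SCOOP12 replicate 3, Ws water replicate 4, Ws SCOOP12 replicate 4, proscoop12 water replicate 4 or proscoop12 SCOOP12 replicate 4 (log2 fold changes of 0.61 to 0.72), as it did by DESeq2 (adjusted p 0.0619); it lies opposite AT2G34930, a disease resistance family gene with leucine-rich repeats. AT3G00170, a misc_RNA next to a MATE efflux gene, rose by 1.26 (edgeR adjusted p 0.0114), with overlapping groups. Of the listed genes of immune signalling and defence, 2 have an opposite-strand locus that was tested: that of CWLP rose, 1 of 2 beside 6.27% of all loci, and AT5G06865, opposite the polygalacturonase inhibitor gene PGIP1, did not pass, at 0.52 (edgeR adjusted p 0.0867). The list was drawn up with earlier results of these data known. It leaves out HCHIB and AT3G26470, whose opposite-strand loci fell, and AT2G34930, whose opposite-strand locus rose.

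Of 15 microRNA precursor loci tested, 1 rose and 1 fell, 13.3% beside 12.8% of all loci, so that the share of microRNA precursors called was near that of all loci; the median log2 fold change was 0.17. AT5G03552 is the precursor of miR822, a young microRNA whose targets are genes with DC1 domains. In Ws it stood at 62.98 and 8.87 CPM in the water libraries of replicates 3 and 4, and at 53.7, 179 and 127 CPM with SCOOP12 in replicates 1, 3 and 4. In proscoop12 the water libraries of replicates 1, 3 and 4 held 74.9, 93.2 and 4.35 CPM, and the SCOOP12 libraries 102, 148 and 141 CPM. The level was very low in both replicate 4 water libraries and the groups overlapped; the log2 fold change was 1.61 (SE 0.43, edgeR adjusted p 0.0230). It lost its call without Ws SCOOP12 replicate 3, Ws water replicate 4 or proscoop12 SCOOP12 replicate 4, and without both libraries of disagreeing names (edgeR adjusted p 0.0657), at log2 fold changes of 1.28 to 2.13 over the 11 omissions, and its DESeq2 adjusted p was 0.0566. AT1G66725 is the precursor of miR163, which targets methyltransferase genes of a family that includes its own neighbour AT1G66720. Ws held 10.8 and 51.0 CPM with water and 44.2, 2.49 and 18.2 CPM with SCOOP12; proscoop12 held 84.1, 23.0 and 39.1 CPM with water and 46.7, 5.90 and 23.7 CPM with SCOOP12. It fell by 1.18 (SE 0.25, edgeR adjusted p 0.00688) within replicate numbers, while across numbers the groups overlapped; without the replicate block the edgeR adjusted p was 0.642, and the call was lost without Ws water replicate 4 (log2 fold changes of -1.02 to -1.41). Of 6 TAS loci, the precursors of trans-acting small RNAs, TAS3 (AT3G17185), whose small RNAs act on auxin response factors, fell by 0.50 (SE 0.12, edgeR adjusted p 0.0129), 1 of 6 beside 6.53% of all loci. Its water libraries held 705 to 1435 CPM and its SCOOP12 libraries 479 to 998 CPM, which overlap; the call was lost without proscoop12 SCOOP12 replicate 4 and without both libraries of disagreeing names (log2 fold change -0.44, edgeR adjusted p 0.0794). The other 5 TAS loci had log2 fold changes of 0.04 to 0.71 and did not pass.

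By RNA class, the counts stand beside 12.8% of all loci. Of 124 misc_RNA loci 21 rose and 6 fell, 21.8%, with a median log2 fold change of 0.12. Most of the 15 loci that match the mitochondrial genome, of which 12 rose (described below), are misc_RNA. The misc_RNA share without them was not computed. Of 443 lncRNA loci 15 rose and 29 fell, 9.93%, with a median of -0.04. Of 103 loci of the class ncRNA 8 rose and 10 fell. Of 39 small nucleolar RNA loci, guides of ribosomal RNA modification, AT1G07897 (0.62) and AT1G06283 (0.64) rose. Of 22 small nuclear RNA loci, components of the splicing machinery, AT3G57645 (-1.10) and AT5G04105 (-0.94) fell. With the covariate AT5G04105 stood at 0.01, and by DESeq2 its adjusted p was 0.0600. Of these 4, AT1G07897 kept its call without both libraries of disagreeing names and the others did not. Of 351 loci opposite coding exons 14 rose and 20 fell, 9.69%, and of 324 that overlap no coding exon 32 rose and 23 fell, 17%. Between these classes no difference was tested. A coding transcript with a near-identical stretch exists for 112 of the tested loci, of which 9 rose and 7 fell, and for these the source of the reads is uncertain.

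One group of misc_RNA and lncRNA loci rose together. The nuclear chromosome 2 of the reference genome carries a large insertion of the mitochondrial genome near its centromere, and 15 of the loci tested match the mitochondrial genome there over at least 50% of their length at 95% identity or more. Of these 15 loci 12 rose, beside 6.27% of all loci, and 0 fell, all 15 had a log2 fold change above 0 in each genotype, and the median was 0.86, from 0.52 to 1.52. The group was defined after their values were seen. The largest were AT2G00490 (1.52, SE 0.39), AT2G05155 (1.29, SE 0.39), AT2G00480 (1.06, SE 0.21) and AT2G05325 (1.04, SE 0.17). AT2G00480 rose without overlap: Ws held 24.6 and 11.1 CPM with water and 49.5, 45.7 and 36.4 CPM with SCOOP12, and proscoop12 held 29.7, 17.3 and 20.3 CPM with water and 44.7, 48.9 and 36.4 CPM with SCOOP12. The highest level was at AT2G05195, where Ws held 411 and 484 CPM with water and 358, 681 and 969.8 CPM with SCOOP12, and proscoop12 held 173.4, 549.9 and 394 CPM with water and 406, 672 and 884 CPM with SCOOP12. Here replicate 1 was low, and the rise was within replicate numbers (log2 fold change 0.87, SE 0.15, edgeR adjusted p 0.00162). Summed over the 15 loci, the library of proscoop12 water replicate 1 held 448 CPM and the SCOOP12 libraries of that number 812 (Ws) and 951 (proscoop12) CPM. In replicate 3 the sum was 981 and 1044 CPM with water and 1539 and 1628 CPM with SCOOP12, for Ws and proscoop12 in that order. In replicate 4 it was 1143 and 946 CPM with water and 2071 and 1917 CPM with SCOOP12. Within each replicate number both SCOOP12 libraries were above every water library. Reads of the mitochondrial genome itself and of the nuclear copy cannot be told apart. Without the replicate block 1 of the 15 passed, and without both libraries of disagreeing names 9 passed; all 15 stayed above 0 in both. The count was 7 without proscoop12 SCOOP12 replicate 1, 5 without proscoop12 SCOOP12 replicate 3, 6 without Ws SCOOP12 replicate 4, 6 without proscoop12 water replicate 4 and 7 without proscoop12 SCOOP12 replicate 4. With the organellar ribosomal RNA share as a covariate, or with the labels of both libraries exchanged, 0 passed by edgeR, at medians of 0.93 and 0.61; 7 and 8 of the 15 had an unadjusted p under 0.05.

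Of the 3 mitochondrial ribosomal RNAs tested, 2 fell, beside 6.53% of all loci. ATMG01390 fell by 1.18 (SE 0.16, edgeR adjusted p 1.43e-04), with water libraries at 53224 to 89090.3 CPM and SCOOP12 libraries at 27630.4 to 44156 CPM, without overlap. ATMG00020 fell by 0.79 (SE 0.21, edgeR adjusted p 0.0216), with water libraries at 233781 to 436916 CPM and SCOOP12 libraries at 155108 to 311396 CPM, with overlap through replicate 1, and lost its call without both libraries of disagreeing names (edgeR adjusted p 0.111) or without Ws SCOOP12 replicate 3, proscoop12 SCOOP12 replicate 3, Ws water replicate 4, Ws SCOOP12 replicate 4, proscoop12 water replicate 4 or proscoop12 SCOOP12 replicate 4 (log2 fold changes of -0.64 to -1.10). With the organellar ribosomal RNA share as a covariate its log2 fold change was 0.13. ATMG00020 itself makes up most of that share, at a mean of 283689 CPM over the DZ libraries beside 54093 for ATMG01390. The covariate thus takes up the locus's own change, and the value is no test of it. ATMG01380 and the plastid ribosomal RNAs ATCG00920, ATCG00950 and ATCG00960 had log2 fold changes of 0.34 to 1.18 and did not pass. The share of all listed reads on mitochondrial and plastid ribosomal RNA was 39.3% ± 2.86 (SD, n = 5) in water libraries and 28.8% ± 11.2 (SD, n = 6) with SCOOP12. The difference was -10.5 percentage points (exact two-sided permutation test over 462 arrangements, p 0.0649). The spread lay in replicate 1: its SCOOP12 libraries held 46.9% (Ws) and 38.2% (proscoop12), those of replicates 3 and 4 held 19.7% to 25.2%, and all water libraries 36.1% to 43.9%. Within each of the 5 pairs of the same genotype and number the share was lower with SCOOP12, with differences of -5.72, -16.0 and -10.9 points in proscoop12 replicates 1, 3 and 4 and of -18.2 and -19.6 points in Ws replicates 3 and 4. These pairs, added after the data were seen, leave out Ws SCOOP12 replicate 1; their mean difference was -14.1 points (SD 5.73, n = 5 pairs), and the exact two-sided sign-flip permutation p of 0.0625 is the smallest that 5 pairs can give. With the labels of both libraries of disagreeing names exchanged, the unpaired difference was -3.81 points (exact permutation p 0.526), and as a share of reads outside nuclear ribosomal RNA it was -6.78 points (exact permutation p 0.0671). Without Ws SCOOP12 replicate 1 the difference was -14.1 points (exact two-sided permutation p 0.0159), and without proscoop12 SCOOP12 replicate 1 it was -12.4 points (exact p 0.0476). With this share as a covariate 8 loci passed, 7 of them among the 98, and 93 of the 98 kept their direction. The median absolute log2 fold change of the 98 was 0.83 with the covariate and 0.86 without it. The share moved with treatment, so the covariate cannot separate them at any locus. The part of the share in the other results was not tested beyond that. With all ribosomal RNA loci left out 100 passed, 95 of them among the 98.

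**Figure D2:**
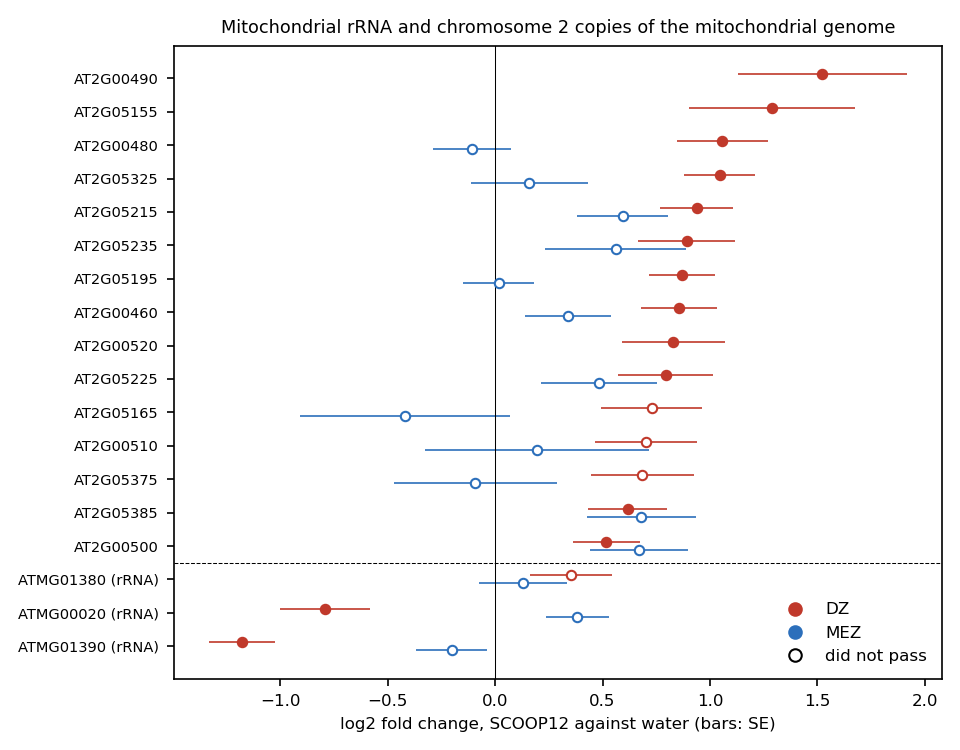
Log2 fold change with SCOOP12 (bars, SE) in DZ (red) and MEZ (blue) for 3 mitochondrial ribosomal RNAs, below the dashed line, and 15 chromosome 2 loci that match the mitochondrial genome, above it; open symbols did not pass. In DZ all 15 copies lie above 0, at 0.52 to 1.52, and ATMG00020 and ATMG01390 lie at -0.79 and -1.18.

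The responses of Ws and proscoop12 were then set side by side. All 98 loci had the same direction in both genotypes, a direction that their choice by the average of both largely fixes. The median response of the loci that rose was 0.83 in Ws and 0.95 in proscoop12, and of those that fell -0.82 and -0.89. By genotype, as contrasts of 1 fit to all 11 DZ libraries, 15 loci passed in Ws (1.96% of 766). Of these 5 rose (0.653%) and 10 fell (1.31%). In proscoop12 36 passed (4.7%), of which 17 rose (2.22%) and 19 fell (2.48%). In both genotypes 12 passed in the same direction, 80% of the Ws calls and 33.3% of those in proscoop12. Both contrasts share the replicate effects and the estimate of the spread, so they are not independent tests. Ws has no water library of replicate 1. Ws has 2 water libraries and proscoop12 3. The number for Ws ran from 1 to 26 when 1 DZ library was left out, the lowest without Ws water replicate 3 and the highest without proscoop12 water replicate 1. Where a Ws water library was left out, the remaining one was assumed to vary like the other groups. It was 3 without Ws SCOOP12 replicate 3, 6 without Ws water replicate 4, 7 without Ws SCOOP12 replicate 4 or proscoop12 water replicate 3, and 9 without either proscoop12 library of replicate 4. For proscoop12 it ran from 7, without SCOOP12 replicate 1, to 56, without water replicate 1. It was 14 without water replicate 3 or 4, 18 without SCOOP12 replicate 4 and 20 without SCOOP12 replicate 3, all proscoop12 libraries. Without both libraries of disagreeing names 1 locus passed in Ws and 9 in proscoop12; without the replicate block 0 and 3 passed by edgeR, and 52 had an unadjusted p under 0.05 in Ws.

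In Ws the largest changes among loci that passed were AT3G00390 (3.17), AT3G22121 (2.44), AT3G04615 (2.42), AT5G00585 (2.29) and AT1G05562 (1.28) upward, and AT4G03585 (-2.15), AT3G00880 (-2.06), AT1G07367 (-1.81), AT1G08173 (-1.74) and AT4G06685 (-1.72) downward, as log2 fold changes. In proscoop12 they were AT3G22121 (3.52), AT3G00390 (2.78), AT5G00585 (2.42), AT3G06962 (2.34) and AT1G05153 (2.08) upward, and AT3G00880 (-2.62), AT1G08173 (-2.12), AT4G03585 (-2.05), AT1G31935 (-1.89) and AT4G06685 (-1.88) downward. The difference of the responses, tested as an interaction, passed at 0 of 766 loci by edgeR and at 0 by DESeq2, and 31 had an unadjusted p under 0.05. Lowest in p was AT1G05562, opposite the glucosyltransferase gene UGT75B1. In Ws it held 22.6 and 16.6 CPM with water and 126, 54.9 and 38.0 CPM with SCOOP12. In proscoop12 it held 125, 51.8 and 34.8 CPM with water and 86.3, 43.0 and 44.0 CPM with SCOOP12. Its response in proscoop12 minus that in Ws was -1.46 (SE 0.39, edgeR adjusted p 0.994). Next came AT4G39366, a small nucleolar RNA (2.06, SE 0.61, edgeR adjusted p 0.994), and AT3G09965, opposite the carboxypeptidase gene scpl40 (-4.22, SE 1.35, edgeR adjusted p 0.994). The latter value rests on 1 read over the 2 Ws water libraries, against 24 reads over the Ws SCOOP12 libraries, 17 over the proscoop12 water libraries and 10 over the proscoop12 SCOOP12 libraries, so it is a fitted value and no measured fold. A difference that misses the threshold does not show that the genotypes respond alike.

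**Figure D3:**
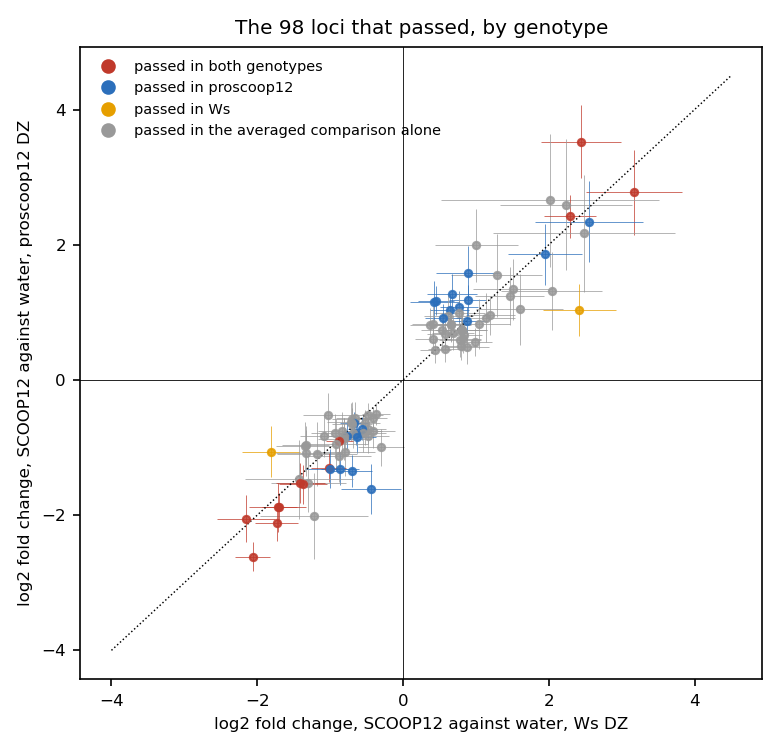
Log2 fold change with SCOOP12 in Ws DZ (horizontal) and in proscoop12 DZ (vertical) of the 98 loci that passed in the averaged comparison. Bars are SE, the dotted line is equality, and colours give the genotypes whose contrast a locus passed. The loci lie in the lower left and upper right quadrants, with AT3G00880 at -2.06 and -2.62 and AT3G22121 at 2.44 and 3.52.

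The MEZ libraries show whether these loci responded in the younger part of the root. In MEZ, whose libraries the DZ comparison did not use, SCOOP12 changed 77 of 709 loci tested, 10.9%: 48 rose (6.77%) and 29 fell (4.09%). Of the loci that rose in DZ 43 were tested in MEZ, where 6 rose and 2 fell; of those that fell in DZ 48 were tested, where 8 fell and 3 rose. The median log2 fold change in MEZ was 0.12 for the former and -0.05 for the latter. The loci that rose in both zones included AT3G00390 (5.19 in MEZ), AT5G00585 (2.32), AT5G09575 (2.14), AT3G22121 (1.62), AT2G00870 (1.30) and AT1G08687 (1.14), and among those that fell in both were AT4G06685 (-0.77), AT2G41312 (-0.86), AT4G13505 (-0.74) and AT2G30362 (-0.54). AT3G00390 and AT5G09575 were near the floor in MEZ with water. On a scale of all 22 libraries AT3G00390 held 0 to 7.24 CPM there with water and 0 to 239 CPM with SCOOP12. AT5G09575 held 0 to 6.21 CPM with water and 9.33 to 36.4 CPM with SCOOP12. For AT5G00585 the difference between zones was 0.07 (SE 0.25, edgeR adjusted p 0.924). The difference between the zones, DZ minus MEZ, passed at 83 of 844 loci (9.83%; 4.27% above 0 and 5.57% below) and at 42 of the 98. The 98 were chosen for their change in the same DZ libraries, which favours a difference between zones. The MEZ count was 50 without either replicate 3 SCOOP12 library, 47 without Ws SCOOP12 replicate 4 and 27 without the replicate block. The zone count was 50 without proscoop12 SCOOP12 replicate 4 of DZ and 26 without the block.

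The pair opposite dirigent genes rose in DZ and fell in MEZ, where the log2 fold change was -1.01 for AT3G04615 (edgeR adjusted p 4.95e-05) and -0.92 for AT4G06135 (edgeR adjusted p 0.00415), with differences between zones of 2.52 and 2.35 that passed. AT4G03585, opposite CYP86A2, fell in DZ and rose in MEZ by 0.96 (edgeR adjusted p 0.0254). AT2G14878 and AT5G48412 fell in DZ and rose in MEZ, by 0.52 and 0.54. Levels in both zones were set on a common scale of all 22 libraries. AT3G00880 stood at 1699 ± 277 CPM (SD, n = 5) in DZ with water and 396 ± 199.5 CPM (n = 6) with SCOOP12, and in MEZ at 302 ± 45.9 (n = 6) and 407 ± 68.6 CPM (n = 5). AT1G31935 stood at 2627 ± 454 and 795 ± 148 CPM in DZ and at 943 ± 196 and 927 ± 171.5 CPM in MEZ, in the same order. For AT4G03585 the values were 257 ± 81.4 and 71.1 ± 42.3 CPM in DZ and 31.1 ± 12.6 and 56.5 ± 14.3 CPM in MEZ. For these 3 loci water DZ was the highest of the 4 groups of libraries, and its lowest library exceeded every MEZ library. For AT3G04615 the values were 32.1 ± 25.5 and 81.9 ± 29.3 CPM in DZ and 443 ± 109 and 204 ± 63 CPM in MEZ. For the miR822 precursor AT5G03552 they were 56.8 ± 46.6 and 148 ± 50.8 CPM in DZ and 429 ± 109 and 362 ± 75.8 CPM in MEZ. For both, water DZ was the lowest and each MEZ group stood above each DZ group in its mean. The level with water in DZ is part of both the treatment and the zone comparison, so these levels are given side by side and no relation between the comparisons was computed.

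**Figure D4:**
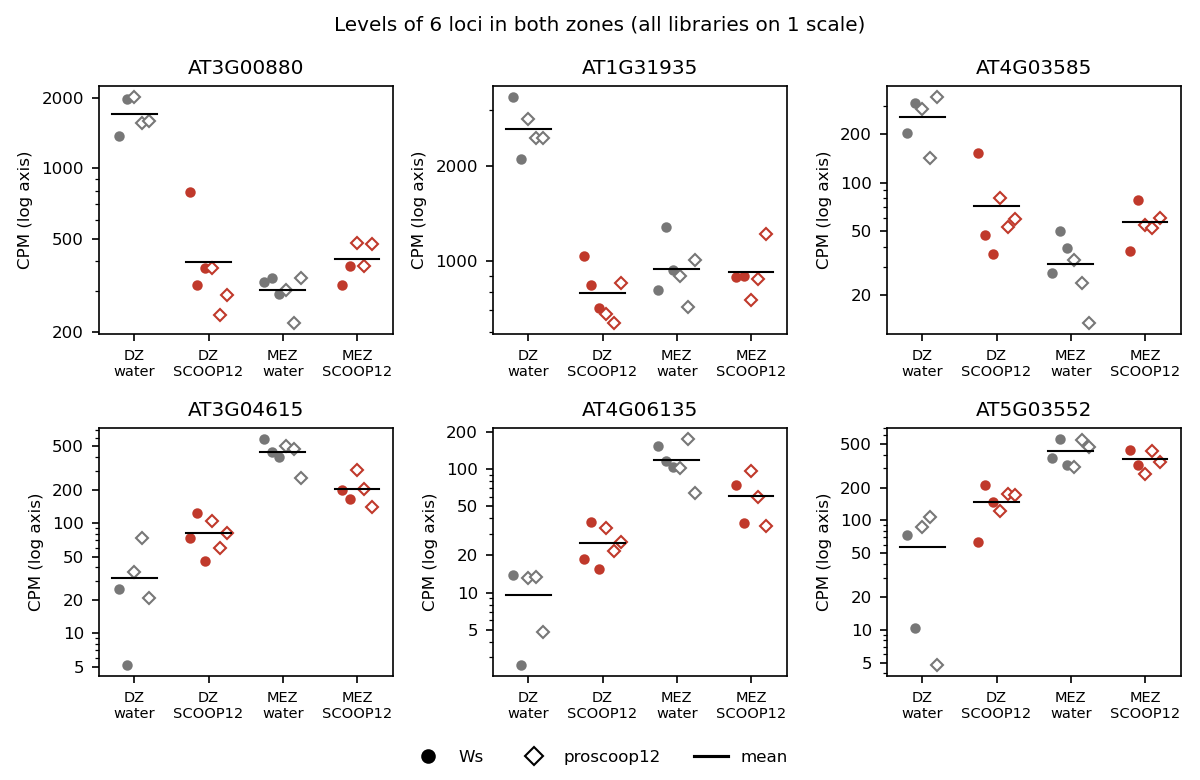
CPM of 6 loci in all 22 libraries on 1 scale (log axes), by zone and treatment, with circles for Ws, diamonds for proscoop12 and lines for means. Water DZ is the highest group for AT3G00880, AT1G31935 and AT4G03585 and the lowest for AT3G04615, AT4G06135 and AT5G03552.

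Of the 15 chromosome 2 copies of the mitochondrial genome, 12 were tested in MEZ. Of these 0 passed there by edgeR, with 3 at an unadjusted p under 0.05, and 0 by DESeq2; 9 were above 0, and the median was 0.27. The difference between zones passed at 2 of the 15, AT2G00480 (1.21) and AT2G05195 (0.91). ATMG01390 had a log2 fold change of -0.20 in MEZ, and its difference between zones of -0.91 passed, as did that of ATMG00020 (-1.07, with 0.38 in MEZ). The organellar ribosomal RNA share of MEZ libraries was 17.2% to 21.9%, in both treatments.

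**Figure D5:**
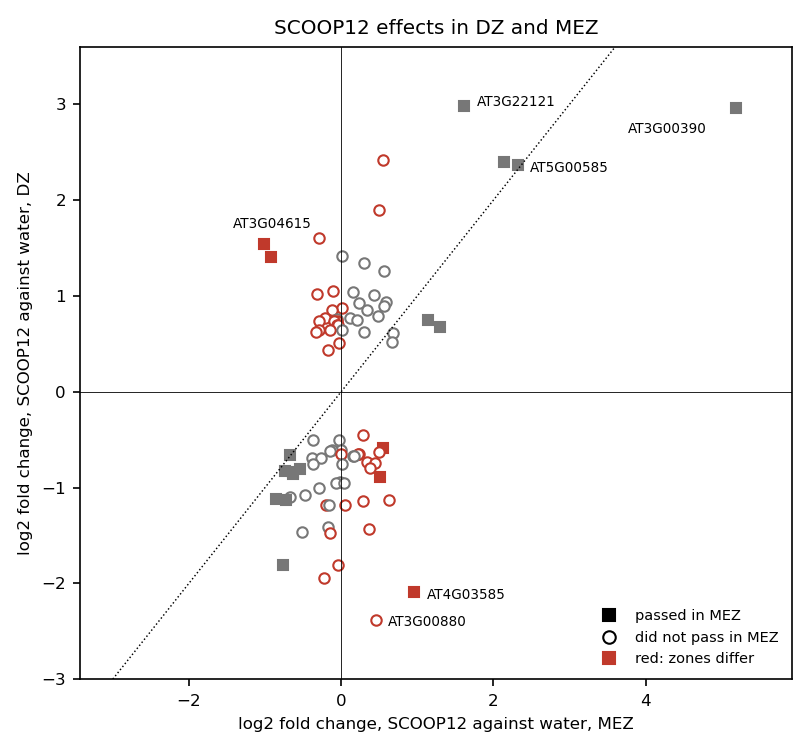
Log2 fold change with SCOOP12 in MEZ (horizontal) and DZ (vertical) for the loci that passed in DZ and were tested in MEZ, with filled squares for those that passed in MEZ, red for those whose zones differ and equality as the dotted line. AT5G00585 lies on the line, AT3G00390 at 5.19 in MEZ and 2.96 in DZ, and AT3G04615 and AT4G03585 in opposite quadrants. The MEZ value of AT3G00390 rests on water libraries near the floor.

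Some calls rest on little. Of the 40 loci with the largest changes, 20 each way, 7 kept their call in at most 4 of the omissions of 1 library that could be tested. AT5G07995 rose by 2.48 on 6 reads over the water libraries and 67 over the SCOOP12 libraries, of which the highest level was in Ws SCOOP12 replicate 1 at 42.1 CPM, and its groups overlapped; log2 fold changes were 1.98 to 2.78 over the omissions. AT4G06065 rose by 2.26 on 5 and 41 reads, and DESeq2 gave it no adjusted p. AT3G61118, an ncRNA, rose by 1.41 on 18 and 76 reads (DESeq2 adjusted p 0.0566), and AT2G05155 by 1.29 on 30 and 115. AT1G08487 fell by 1.45 and AT1G08763 by 1.68, with wide overlap: AT1G08763 stood at 4.92 to 133 CPM with water and 1.66 to 43.1 CPM with SCOOP12. With AT3G51238 these make the 7; between 7 and 9 of their omissions ended the call, among them those of Ws water replicate 4 and Ws SCOOP12 replicate 4 in all 7. In contrast 46 of the 98 kept their call in all 11 omissions, 23 that rose and 23 that fell. At the threshold, AT4G31248 (log2 fold change -0.61) and AT2G08145 (-0.69) passed at an adjusted p of 0.0491, and AT1G28685 (-0.62) and AT3G01205 (-0.67) missed it at 0.0523, by edgeR; AT2G08145 had a DESeq2 adjusted p of 0.115.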

How the data were processed

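The authors quantified reads of stranded mRNA libraries with Salmon, per the submitters' processing notes; its estimated counts per transcript, as deposited, were rounded to whole numbers and used here. The deposited files also give TPM, a measure per transcript length scaled to an equal total, which entered no result given here. DESeq2 is named in the same notes, with no design. Neither the tool versions nor the library type set in Salmon, the strand counted, the genome build and the annotation were found: not given in the sources used here.

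Of 5224 loci, 5182 matched RefSeq's TAIR10.1 annotation by locus name, which gave classes, neighbours and overlaps with coding exons; 42 did not. Near-identical copies and matches to the mitochondrial genome were found with blastn 2.17.0 (at least 100 nt at 95% identity). No sequences or coordinates are printed. Of 77 listed coding genes and 18 markers, 0 have a row, so coding genes entered only through opposite-strand loci.

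The 11 DZ libraries were fitted in edgeR 4.0.16 (R 4.3.3, limma 3.58.1) with replicate number, genotype and treatment, TMM scaling, filterByExpr (minimum count 10, minimum total 15) and the quasi-likelihood F test, with Benjamini-Hochberg adjustment. A model of group means with the same block gave each genotype's response and their difference; MEZ and the difference between zones (all 22 libraries) were fitted alike. SE was taken as the size of the log2 fold change divided by the root of the F statistic. CPM use TMM-scaled totals of the loci tested, of the DZ libraries unless both zones are compared. Shares were compared by an exact permutation test.

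Same-number DZ libraries deviated together after group means were removed, with correlations of 0.201 to 0.711 over 15 pairs. In the 3 proscoop12 pairs of water and SCOOP12 they were 0.29 to 0.496. The 30 pairs of different numbers gave -0.497 to 0.136. Removing means of 2 or 3 libraries tends to make these negative where same-number pairs are positive. That contrast is therefore partly built in. On the same-number correlations the numbers were taken to pair the samples. The labels do not say that replicates are separate cultures; p-values then measure only the spread between these samples, which may be technical. Precision at this depth is limited for loci with few reads.

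Named were up to 20 loci in each direction that passed, ranked by fold change, at a mean of at least 1 CPM, up to 5 in each direction in the other comparisons, the 3 smallest p where fewer than 3 passed, and members of described groups. Members, lists and comparisons were chosen with earlier results of these data known. Alternatives were DESeq2 1.42.0, other scaling, no filter, no block, all libraries in one fit, omissions of libraries, runs or ribosomal RNA, exchanged labels and a covariate. The scripts were tested on simulated data.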

Additional observations from a re-analysis of the deposited data

Results flagged for a closer look

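For 19 of the 40 loci with the largest changes, the response to SCOOP12 differed between the zones by edgeR's interaction test, given here as the log2 response in DZ minus that in MEZ. It was lower in DZ for AT1G08487 (-4.47), AT1G08763 (-3.44), AT4G03585 (-3.0), AT3G00880 (-2.77), AT3G05015 (-1.75), AT1G08803 (-1.73), AT1G31935 (-1.73), AT1G08173 (-1.60), AT5G09525 (-1.38), AT1G04247 (-1.24), AT3G12502 (-1.15) and ATMG01390 (-0.91). It was higher in DZ for AT3G04615 (2.52), AT4G06135 (2.35), AT3G06962 (1.89), AT5G03552 (1.84), AT1G07937 (1.47), AT2G09785 (1.38) and AT2G00480 (1.21). The first of these include loci whose calls in DZ were lost in most omissions of 1 library, AT1G08487 and AT1G08763. Both were near the floor in MEZ. Mean levels with water and SCOOP12 there were 0.41 and 4.07 CPM for AT1G08487, and 1.01 and 3.49 CPM for AT1G08763. Over all 844 loci 9.83% passed this test. The 40 were chosen for large changes in the same DZ libraries, which favours a difference between zones. No cause of these differences was tested.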

How the results depend on the processing

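The direction of the 98 loci was the same in every alternative that tested them except the organellar ribosomal RNA covariate, where 93 kept it. The 98 were chosen on libraries that these alternatives share, which largely fixes the direction. Among the named loci the covariate turned AT2G05155 to -0.13, AT1G08763 to 0.15, ATMG00020 to 0.13 and AT5G04105 to 0.01. ATMG00020 makes up most of the share used as the covariate, so its value is no test. At other loci the covariate may also take up part of the treatment's change, since the share was lower on average with SCOOP12. Numbers of loci that passed, for both genotypes averaged, Ws and proscoop12 in that order, were 98, 15 and 36. They were 20, 0 and 3 without the replicate block, 0, 0 and 0 by edgeR with the labels of the 2 libraries of disagreeing names exchanged (93, 42 and 49 at an unadjusted p under 0.05), and 8, 0 and 5 with the covariate. With replicates 1 and 3 alone they were 16, 9 and 17; Ws water then has 1 library, assumed to vary like the other groups. Both disagreeing libraries left out gave 1 in Ws and 9 in proscoop12, replicates 3 and 4 alone 33 in Ws, and no filter 29 and 58. The difference between genotypes passed at 0 loci, at 2 with no filter (of 2308 loci) and at 1 each in replicates 1 and 3 and in replicates 3 and 4. Without the block, 27 passed in MEZ and 26 in the difference between zones. Omitting 1 library gave 58 to 106 for the average, 1 to 26 for Ws, 7 to 56 for proscoop12, 0 to 1 for the difference between genotypes, 47 to 101 for MEZ and 50 to 89 for the difference between zones. The organellar share differed by -14.1 to -8.65 points over omissions; the lowest passed, as did that without proscoop12 SCOOP12 replicate 1 (-12.4). It was -3.81 with the labels exchanged, -6.78 outside nuclear ribosomal RNA and -14.1 within pairs of one genotype and replicate number (replicate block). The share of calls that rose was 49% for the average and 35% without the block. DESeq2, RLE scaling, all 22 libraries and no ribosomal RNA kept the average within 84 to 101. No filter moved the median log2 fold change of all loci to 0.11. With 2 or 3 libraries a group and 103351 to 160467 reads outside ribosomal RNA, loci with few reads could not be resolved. Except where said, the cause of a change was not tested.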
